A study of Mus musculus with 9 samples.

Results

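Immediate-early genes are the genes a cell transcribes within minutes of a stimulus, without first making new protein. Kinase cascades, calcium and cyclic AMP act on transcription factors that already sit in the cell, such as CREB, the serum response factor with its ternary complex partners, and NF-kB. The new transcripts encode further transcription factors (the AP-1, EGR and NR4A families), effectors, and inhibitors that end the signal. In islets they are known to be induced by glucose and by depolarization, and in many tissues also by dissociation and handling.

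The members described here are 35 immediate-early genes named from general knowledge, of 56941 gene identifiers in the count table. The list was put together with results of these same libraries in view. The members were therefore in part chosen on measured values, the differences between diets below are a description of these libraries, and they give no independent support to any direction. All 35 members passed the filter on low counts, as did 18548 genes in all, and these were tested.

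Pancreatic islets came from wild-type male C57BL/6J mice that began a diet at 15 weeks of age and stayed on it for 9 months. The diets were a low fat diet (LFD, 10% fat, 3 libraries), a high fat diet (HFD, 60% fat, 2 libraries) and a ketogenic diet (KD, 89.9% fat, 4 libraries). The labels name no transgene or drug in any group, and the LFD group is the reference for both other diets. The labels do not say whether a library is 1 mouse, a pool or a repeat preparation, so the p-values below measure only the spread between these libraries. Trizol-extracted RNA was enriched for poly(A) transcripts and sequenced as directional libraries. In such bulk RNA, fewer cells of a type and less RNA per cell cannot be told apart.

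Total counts ran from 15513502 to 26588390 per library. Islet markers were present in every library, with 10 beta cell markers taking from 1.68% (KD 1) to 12.9% (HFD 1) of the counts, and 23 markers of acinar cells, the enzyme-secreting cells around the islets, taking from 11.3% (HFD 2) to 60.8% (KD 1). Levels below are CPM (counts scaled to library size) after scaling by trimmed mean of M-values (TMM), with scaling factors from 0.542 (KD 1) to 1.5 (HFD 2). LFD 1, HFD 2 and the like name a library by its diet and replicate number. Differences are fitted log2 fold changes with their standard error (SE), tested with edgeR's quasi-likelihood test with Benjamini-Hochberg adjustment over all genes tested. A gene is said to have risen or fallen where that adjusted p is below 0.05.

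Promoter sequence is shown first, since these genes are classed together by how they are switched on. The RefSeq promoter table (mouse build GRCm38.p6, an earlier build than the GRCm39 of the counts) held windows for 28 of the 35 members. The 250 bases before the start were searched on both strands. For genes with more than 1 window, 3 of the members among them, a match in any window counted. The cyclic AMP response element (CRE), TGACGTCA, was found in 4 of 28 members, Maff, Btg2, Dusp1 and Ppp1r15a, which is 14.3% against 1.77% of 27025 genes. Its core TGACG, which every full CRE also contains, was found in 16 members, 57.1% against 19.8% of genes. The serum response element was found in 3 members, Egr2, Dusp5 and Zfp36, which is 10.7% against 1.62% of genes. The NF-kB motif was found in 6 members, Fos, Fosb, Fosl2, Maff, Nfkbia and Ier3, 21.4% against 4.46%. The AP-1 motif TGAGTCA was found in 1 member, Csrnp1, 3.57% against 5.16%, and TATAAA in 3, Fos, Nr4a2 and Gadd45b, 10.7% against 14.3%. These matches are letters in a window and show no binding. A motif not found here may lie outside the 250 bases searched. Windows for Fosl1, Egr1, Egr3, Myc, Ier2, Nfkbiz and Arc were not used here.

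The 150 bases before the start are printed for 5 members, picked by hand as examples with a CRE, its core or a serum response element. Other members with these motifs, such as Maff, Btg2 and Egr2, are not printed. The 5 printed windows pair 3 genes that fell on KD (Fos, Dusp1 and Zfp36) with 2 that did not pass the test (Dusp5 and Ppp1r15a). Each runs 5′ to 3′ on the gene's own strand in GRCm38.p6. Capitals mark the CRE, its core on either strand, the serum response element or TATAAA. Distances count back from the start site. In Fos, at chr12:85473740-85473889 on the plus strand, the CRE core lies at 129 to 125 and at 66 to 62 bases before the start, and TATAAA at 33 to 28. In Dusp1, at chr17:26508473-26508622 on the minus strand, a full CRE lies at 143 to 136. In Zfp36, at chr7:28379229-28379378 on the minus strand, a serum response element lies at 58 to 49. In Dusp5, at chr19:53528995-53529144 on the plus strand, a pair of serum response elements stand side by side at 82 to 73 and 72 to 63, followed by a CRE core on the other strand at 55 to 51. In Ppp1r15a, at chr7:45526269-45526418 on the minus strand, a full CRE lies at 12 to 5. Since these 5 windows were picked by hand, nothing is read from which motifs stand before genes that fell or did not.
Fos: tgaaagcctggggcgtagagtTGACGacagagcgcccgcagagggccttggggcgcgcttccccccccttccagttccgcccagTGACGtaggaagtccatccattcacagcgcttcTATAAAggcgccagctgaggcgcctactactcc
Dusp1: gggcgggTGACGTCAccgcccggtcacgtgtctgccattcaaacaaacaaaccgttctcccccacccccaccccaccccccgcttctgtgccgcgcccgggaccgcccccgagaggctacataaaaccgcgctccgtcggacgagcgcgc
Zfp36: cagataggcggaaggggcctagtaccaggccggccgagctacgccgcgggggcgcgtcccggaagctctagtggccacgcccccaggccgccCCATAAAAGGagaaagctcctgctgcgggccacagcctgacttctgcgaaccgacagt
Dusp5: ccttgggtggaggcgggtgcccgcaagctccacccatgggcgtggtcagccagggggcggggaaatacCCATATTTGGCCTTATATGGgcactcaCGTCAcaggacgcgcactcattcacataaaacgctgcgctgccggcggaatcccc
Ppp1r15a: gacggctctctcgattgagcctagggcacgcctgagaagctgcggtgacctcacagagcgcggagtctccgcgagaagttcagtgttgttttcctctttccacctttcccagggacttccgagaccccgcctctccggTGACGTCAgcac

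As a group, the immediate-early genes were lower in KD and in HFD islets than in LFD islets. The 35 genes together gave 2177, 2130 and 1349 CPM in the LFD libraries, 877 and 987 CPM in the HFD libraries, and 896, 776, 733 and 748 CPM in the KD libraries. No KD or HFD library reached the lowest LFD library. On KD against LFD, 23 of the 35 members fell and 0 rose, beside 3.14% of all genes tested that fell and 0.981% that rose. The median member log2 fold change was -1.41, that is 2.65-fold lower, beside -0.02 over all genes, and all 35 fitted changes were below 0, from -0.11 to -4.54. In 25 members every KD library lay below every LFD library, beside 10.1% of all genes. The members were chosen with this comparison known, so nothing is read from these shares. Differences in islet isolation and handling between libraries could not be followed here, and their part in these values was not tested.

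**Figure D1:**
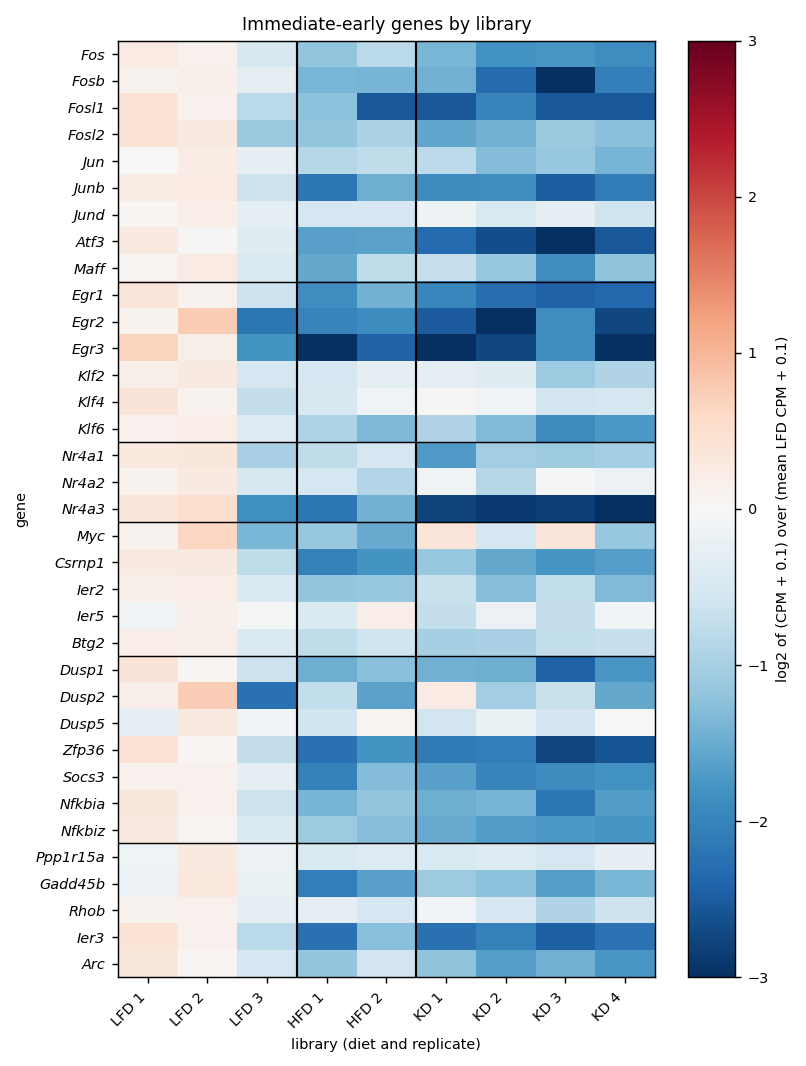
Level of each of the 35 immediate-early genes (vertical axis, ordered by role, black lines between roles) in each of the 9 libraries (horizontal axis), as log2 of CPM plus 0.1 over the mean LFD CPM plus 0.1, with colours limited at 3 in either direction. The KD and HFD libraries are blue for most genes, LFD 3 is paler blue for most, and Klf4, Myc, Ier5, Dusp5 and Rhob stay near white in several KD libraries.

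The LFD libraries were not alike. LFD 3 was the lowest LFD library in 33 of the 35 members, beside 40.5% of all genes, while LFD 2 was the highest in 21 and LFD 1 in 14. The median member stood 0.29 and 0.23 above the LFD mean (log2 difference) in LFD 1 and LFD 2, and at -0.47 in LFD 3. It stood at -1.12 and -1.10 in the HFD libraries and at -1.16, -1.30, -1.54 and -1.57 in KD 1 to KD 4. Leaving out LFD 1, LFD 2 or KD 3 lowered the count of members that fell on KD from 23 to 15, 14 and 15. The share of all genes called in either direction fell at the same time, from 4.12% to 0.970%, 1.24% and 0.822%. With both LFD 1 and LFD 2 left out, a choice made after seeing the data, 3 of the 23 still fell in a fit where LFD 3 alone stood for that diet and was assumed to vary like the other groups. These were Atf3 (log2 fold change -2.28, edgeR adjusted p = 0.0104), Egr1 (-1.59, 0.0261) and Nfkbiz (-1.22, 0.0310). All 23 kept a negative fitted change in that fit, which called 25 genes in all, 0.128% of those tested.

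Markers of lymphocytes were also highest in the LFD libraries. The 12 B lymphocyte markers summed to 102, 187 and 35.6 CPM on LFD, 4.20 and 7.25 CPM on HFD, and 3.11, 2.94, 1.34 and 2.33 CPM on KD, and all 12 fell on KD against LFD. Among the defining ones, Ms4a1 was at 0 in HFD 1, KD 3 and KD 4, and Pax5 in KD 1 and KD 2. The 12 T lymphocyte markers summed to 23.2, 61.7 and 7.22 CPM on LFD, 3.40 and 2.85 CPM on HFD, and 0.891 to 2.51 CPM on KD, and 9 of the 11 tested fell. Beside these counts, 3.14% of all genes tested fell. Several markers with few or no counts on the other diets, among them Pax5, Blk and Cd8a, passed the filter on low counts through their LFD libraries. That such markers fell is no support. With the B lymphocyte score as a covariate, also chosen after seeing the data, 0 of the 23 members kept their call, 12 of the 23 kept a negative fitted change, and the median member change was 0.29. That fit called 0 of all genes tested (0%), and its SE for Fos was 0.58 in place of 0.19, so the loss of calls is not particular to the members. The B lymphocyte sums of LFD and of the other diets do not overlap, so diet and lymphocyte RNA cannot be told apart in these 9 libraries.

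The 12 macrophage markers summed to 158, 172 and 98.9 CPM on LFD, 123 and 154 CPM on HFD, and 52.2 to 96.7 CPM on KD, with 2 of 12 falling on KD, beside 3.14% of all genes. Every KD sum lay below every LFD sum, so diet and macrophage RNA cannot be told apart for KD against LFD. The 12 endothelial markers summed to 475 to 627 CPM on LFD, 837 and 909 CPM on HFD and 444 to 695 CPM on KD, and 0 passed the test. The 12 fibroblast and stellate markers summed to 454 to 855 CPM on LFD, 513 and 645 CPM on HFD and 230 to 494 CPM on KD, and 0 passed the test on KD. The 10 duct markers summed to 581 to 723 CPM on LFD, 416 and 423 CPM on HFD and 476 to 623 CPM on KD. Of these 3 fell on KD, beside 3.14% of all genes. In 8 of the 10 both HFD libraries lay below every LFD library, beside 14.1% of all genes. The duct keratin Krt19 was at 54, 46.2 and 19.1 CPM on LFD, 9 and 11.1 CPM on HFD, and 6.23 to 13.1 CPM on KD. Krt19 had the lowest KD log2 fold change of the 10 (-1.99) and Muc1 the highest (1.02), with 7 of the 10 below 0. The 13 mitochondrially encoded genes, whose level can follow RNA quality, summed to 12500 to 16453 CPM on LFD, 9107 and 18827 CPM on HFD and 6144 to 10777 CPM on KD. In 8 of the 13 every KD library lay below every LFD library, beside 10.1% of all genes, and 0 passed the test on KD. Mitochondrial sums on KD lay wholly below LFD, while on HFD the duct sums lay below LFD and the endothelial sums above it. In those comparisons diet and these RNAs cannot be told apart. The part of any of these lists in the members' values was not tested. Of 9 neutrophil markers, 3 were at 0 in all 9 libraries and 2 were abundant enough to test. KD 4 had an acinar share of 20.4% of counts and KD 1 to KD 3 shares of 44.8% to 60.8%. The members of KD 4 summed to 748 CPM, within the 733 to 896 CPM of the other KD libraries, but this rests on 1 library. With the acinar score as a covariate the median member change on KD against LFD was -1.69 beside -1.41. The part of acinar RNA in the members' values was not tested.

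**Figure D2:**
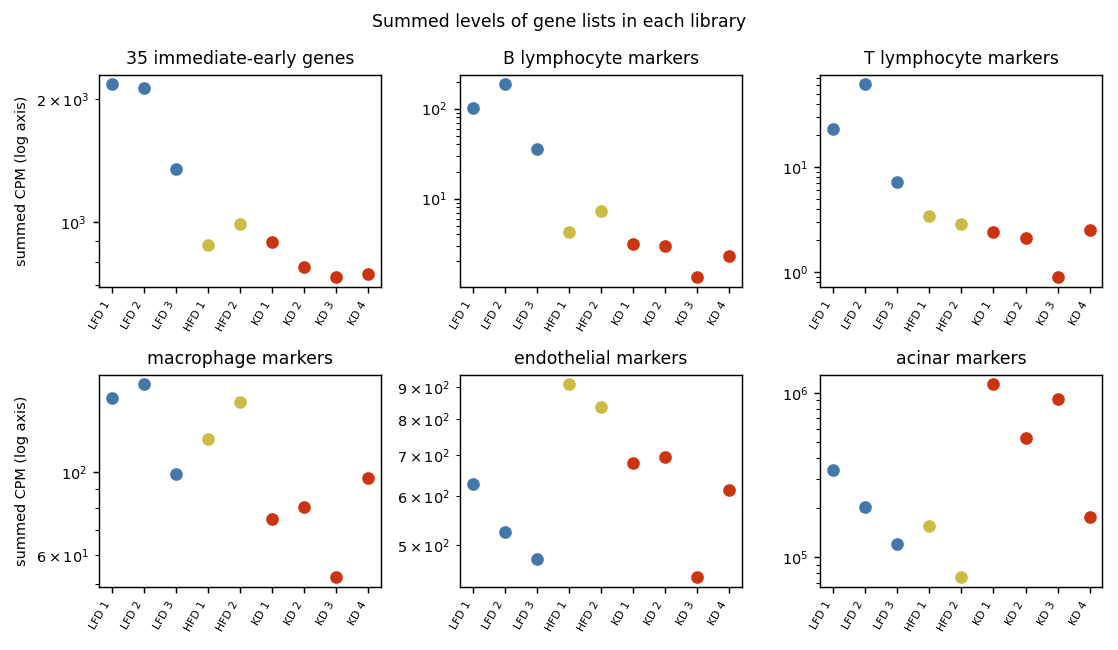
Summed CPM (vertical axis, log scale, different range in each panel) of the 35 immediate-early genes and of 5 marker lists in each library (horizontal axis). LFD libraries are blue, HFD yellow and KD red. The members and both lymphocyte lists are highest in the 3 LFD libraries. The macrophage sums overlap between LFD and HFD but not between LFD and KD, and the endothelial sums overlap between LFD and KD. The TMM scaling carries the acinar sum of KD 1 to 1123462 CPM.

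AP-1 factors are dimers of FOS, JUN and related basic leucine zipper proteins that bind the AP-1 motif. Of the 9 members of this kind, 7 fell on KD, beside 3.14% of all genes. The 9 had a median log2 fold change of -1.68 on KD and -1.11 on HFD. Members were chosen with results known, so nothing is read from this count or from those of the kinds below. Fos, the most rapidly induced AP-1 subunit, was at 173, 162 and 106 CPM on LFD, 64.9 and 84.4 CPM on HFD, and 57.0, 42.0, 43.9 and 40.6 CPM on KD. The 3 diets did not overlap, and all KD libraries lay below both HFD libraries. Its mean was 147 ± 36.0 CPM (SD, n = 3) on LFD and 45.9 ± 7.52 CPM (SD, n = 4) on KD, 3.21-fold lower (log2 fold change -1.68, SE 0.19, edgeR adjusted p = 0.00237). Fosb, a FOS paralog, was at 61.7, 63.5 and 47.2 CPM on LFD, 22.3 and 21.9 CPM on HFD, and 21.2, 11.6, 7.21 and 13.8 CPM on KD. Its lowest LFD library was above its highest library on either other diet, and it was 4.27-fold lower on KD (log2 fold change -2.09, SE 0.28, edgeR adjusted p = 0.00535).

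Fosl2, a FOS-related subunit, was at 74.2, 66.7 and 25.8 CPM on LFD, 24.8 and 28.5 CPM on HFD, and 18.8, 20.5, 25.6 and 23.3 CPM on KD. LFD 3 was at the level of the HFD libraries and just above the highest KD library. The fitted KD change was -1.33 (SE 0.29, edgeR adjusted p = 0.0322), and the call was lost on leaving out any 1 library but LFD 3 or KD 4, with adjusted p from 0.0578 to 0.139. Fosl1 was rare, at 0.674, 0.538 and 0.235 CPM on LFD, 0.15 and 0 CPM on HFD, and 0, 0.0446, 0 and 0 CPM on KD, which is 28 counts over the LFD libraries, 3 over HFD and 1 over KD. Corrected for depth, the LFD level was 6.83 times that of HFD (95% counting interval 2.11 to 35.1) and 32.2 times that of KD (5.32 to 1315), and its edgeR adjusted p on KD was 0.0529. Fosl1 passed the filter through its LFD libraries, and it is the 1 member without counts in at least 1 library.

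Jun, the main partner of FOS, was at 147, 171 and 125 CPM on LFD, 81.8 and 86.4 CPM on HFD, and 85.0, 59.8, 67.2 and 56.2 CPM on KD. The LFD libraries lay above all others, while KD 1 lay within the HFD range. Jun was 2.21-fold lower on KD (log2 fold change -1.14, SE 0.16, edgeR adjusted p = 0.00593). Junb, which can oppose JUN at AP-1 sites, was at 120, 123 and 67.3 CPM on LFD, 23 and 37.6 CPM on HFD, and 28.1, 28.5, 18.6 and 24.2 CPM on KD. It was 4.16-fold lower on KD (log2 fold change -2.05, SE 0.24, edgeR adjusted p = 0.00349), with no overlap between LFD and either other diet. Jund, the JUN paralog that resting cells express steadily, had means of 122 ± 21.4 CPM on LFD (SD, n = 3), 85.1 ± 0.711 CPM on HFD (n = 2) and 94.5 ± 12.5 CPM on KD (n = 4). Its KD and LFD libraries overlapped and it did not pass the test (log2 fold change -0.37, SE 0.15, edgeR adjusted p = 0.178).

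Atf3, a stress-induced repressor of the ATF/CREB group, had the smallest adjusted p of all genes tested on KD. It was at 80.4, 67.8 and 51.9 CPM on LFD, 21.5 and 22 CPM on HFD, and 13.2, 10.5, 6.86 and 11.4 CPM on KD. The 3 diets were fully separate, and Atf3 was 6.33-fold lower on KD (log2 fold change -2.66, SE 0.21, edgeR adjusted p = 0.000784). Maff, a small MAF protein that lacks an activation domain, was at 18.6, 20.9 and 12.9 CPM on LFD, 5.95 and 10.2 CPM on HFD, and 10.7, 7.84, 4.72 and 7.53 CPM on KD. The LFD libraries were above all others by a narrow margin over KD 1. Its change of -1.18 (SE 0.28, edgeR adjusted p = 0.0411) was past the threshold with all libraries and not without LFD 1, LFD 2, KD 2 or KD 3 (adjusted p from 0.0936 to 0.133).

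**Figure D3:**
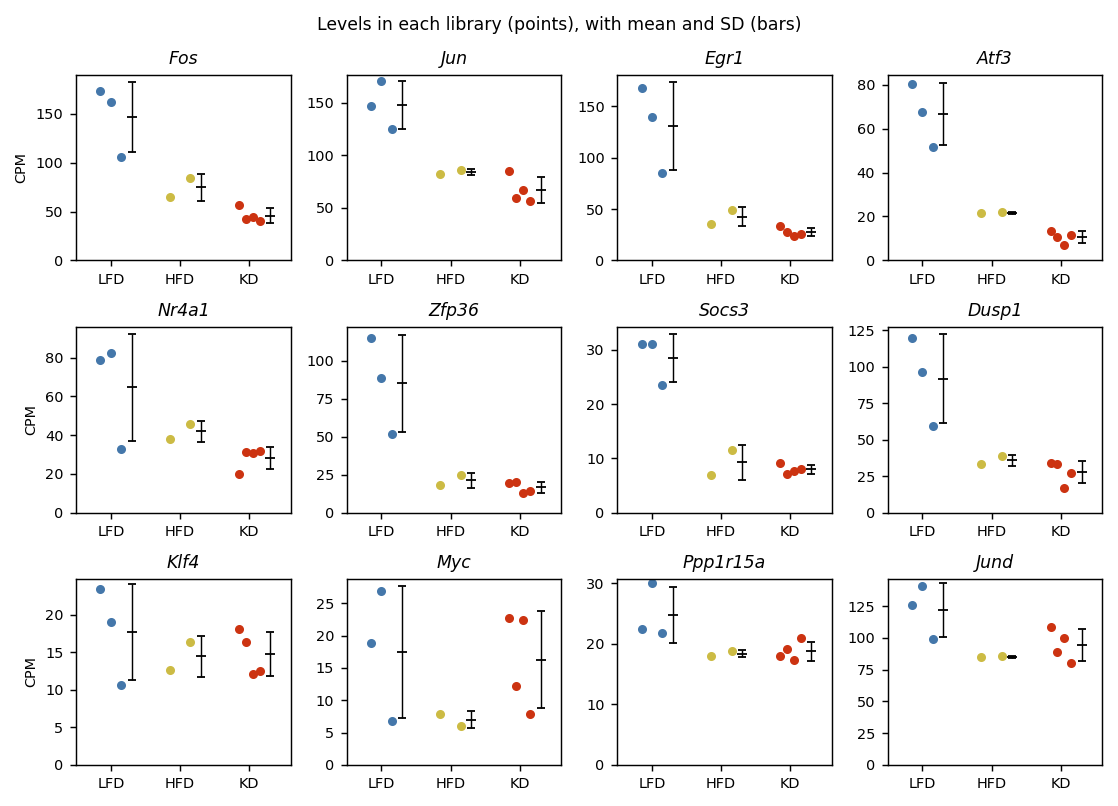
CPM (vertical axis, from 0) of 12 immediate-early genes by diet (horizontal axis), each point 1 library and each bar the mean with SD (LFD n = 3, HFD n = 2, KD n = 4). Fos, Jun, Egr1, Atf3, Zfp36, Socs3 and Dusp1 show every LFD library above every other, while Klf4, Myc and Jund overlap between LFD and KD.

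EGR and KLF proteins are zinc finger factors that bind GC-rich promoters. Of 6 such members 3 fell on KD, beside 3.14% of all genes, and the 6 had a median change of -1.83 on KD and -1.38 on HFD. Egr1 was at 168, 140 and 84.7 CPM on LFD, 35.7 and 49.0 CPM on HFD, and 33.5, 27.4, 24.2 and 25.3 CPM on KD. The 3 diets did not overlap, and Egr1 was 4.75-fold lower on KD (log2 fold change -2.25, SE 0.22, edgeR adjusted p = 0.00164). Egr3, a close relative of EGR1, was at 6.13, 4.35 and 1.03 CPM on LFD, 0.200 and 0.629 CPM on HFD, and 0.0778, 0.490, 0.980 and 0.269 CPM on KD. LFD 3 was only just above KD 3. Egr3 had a KD change of -3.11 (SE 0.72, edgeR adjusted p = 0.0376), and this call was lost on leaving out any 1 library but LFD 3, with adjusted p from 0.0519 to 0.151. Egr2, at 3.80, 6.05 and 0.704 CPM on LFD and 0.0446 to 0.891 CPM elsewhere, overlapped between LFD and both other diets and did not pass the test (edgeR adjusted p = 0.0566).

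Klf6, a widely expressed injury-induced factor, was at 110, 115 and 77.2 CPM on LFD, 52.8 and 39.4 CPM on HFD, and 54.2, 40.1, 27.2 and 30.4 CPM on KD. LFD stood above both other diets, which overlapped each other. It was 2.65-fold lower on KD (log2 fold change -1.41, SE 0.23, edgeR adjusted p = 0.0129, and 0.0509 without LFD 2). Klf4, known for its role in pluripotency and in quiescent epithelium and vessels, was at 23.4, 19.1 and 10.7 CPM on LFD, 12.6 and 16.4 CPM on HFD, and 18.1, 16.4, 12.1 and 12.5 CPM on KD. All 3 diets overlapped, with LFD 3 the lowest of the 9 libraries, and the KD change was -0.26 (SE 0.25, edgeR adjusted p = 0.578). Klf2, the flow-responsive endothelial factor, had a KD change of -0.62 and an adjusted p of 0.155.

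The NR4A receptors are orphan nuclear receptors whose activity follows their own transcription, and NR4A1 and NR4A3 have been linked to beta cell proliferation. Of the 3 members, 2 fell on KD, beside 3.14% of all genes. Nr4a1 was at 78.9, 82.4 and 32.8 CPM on LFD, 38.0 and 45.9 CPM on HFD, and 19.8, 31.2, 30.7 and 31.7 CPM on KD. LFD 3 was below both HFD libraries and only just above the KD libraries. The KD change of -1.19 (SE 0.29, edgeR adjusted p = 0.0465) was the call nearest the threshold, and it was lost on leaving out any 1 library but LFD 3 or KD 4, with adjusted p from 0.0734 to 0.175. Nr4a3 was at 14.7, 16.2 and 3.10 CPM on LFD, 2.45 and 4.19 CPM on HFD, and 1.56, 1.47, 1.51 and 1.03 CPM on KD. It was 8.18-fold lower on KD (log2 fold change -3.03, SE 0.49, edgeR adjusted p = 0.0124), while LFD 3 and HFD overlapped. Nr4a2 had a KD change of -0.27 and an adjusted p of 0.533, with overlapping libraries.

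Among 5 other nuclear regulators 3 fell on KD, beside 3.14% of all genes, and the 5 include the member that changed least. Csrnp1, a nuclear protein induced by AXIN1, was at 21.8, 22 and 10.6 CPM on LFD, 4.40 and 5.15 CPM on HFD, and 8.25, 6.15, 5.25 and 5.74 CPM on KD. LFD was highest, and every KD library lay above both HFD libraries. Its KD change was -1.52 (SE 0.26, edgeR adjusted p = 0.0133), with adjusted p of 0.0603, 0.0533 and 0.0517 without LFD 1, LFD 2 or KD 3. Ier2 was at 41.0, 42.2 and 27.3 CPM on LFD, 16.5 and 16.8 CPM on HFD, and 23.3, 15.1, 22 and 14.6 CPM on KD. LFD again lay above the rest, with a KD change of -0.98 (SE 0.21, edgeR adjusted p = 0.0272) that was not past the threshold without LFD 1, LFD 2, KD 2 or KD 3 (adjusted p from 0.0575 to 0.111).

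Btg2, an antiproliferative p53 target, was at 220, 212 and 142 CPM on LFD, 112 and 127 CPM on HFD, and 96.3, 97.2, 115 and 118 CPM on KD. LFD was separate from both other diets. Btg2 had the smallest change among the members that fell, 1.80-fold (log2 fold change -0.84, SE 0.16, edgeR adjusted p = 0.0220), and the call was lost without LFD 1, LFD 2, KD 1, KD 2 or KD 3 (adjusted p from 0.0501 to 0.105). Myc, the growth factor-responsive oncogene, was at 18.9, 26.9 and 6.71 CPM on LFD, 7.90 and 6.03 CPM on HFD, and 22.7, 12.2, 22.5 and 7.89 CPM on KD. The KD libraries all lay between LFD 3 and LFD 2, and Myc had the smallest KD change of the 35 (log2 fold change -0.11, SE 0.47, edgeR adjusted p = 0.917). The sign turned without LFD 2 (0.34), KD 2 (0.01) or KD 4 (0.12). Ier5, a regulator of heat shock factor 1, was at 24.0, 28.8 and 25.1 CPM on LFD, 19.2 and 29.9 CPM on HFD, and 15.9, 22.8, 15.9 and 24.7 CPM on KD, and all 3 diets overlapped.

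Feedback inhibitors switch off the signals that induce the other members. Of 7 such genes 5 fell on KD, beside 3.14% of all genes, and the 7 had a median change of -1.67 on KD and -1.27 on HFD. Dusp1, a phosphatase of p38 and JNK kinases, was at 120, 96.3 and 59.4 CPM on LFD, 33.1 and 38.6 CPM on HFD, and 33.7, 33.5, 17.1 and 27.4 CPM on KD. It was 3.28-fold lower on KD (log2 fold change -1.71, SE 0.26, edgeR adjusted p = 0.0104) and did not overlap with LFD on either diet. Zfp36, which encodes tristetraprolin and speeds the decay of AU-rich mRNAs, was at 115, 88.5 and 51.5 CPM on LFD, 17.9 and 24.6 CPM on HFD, and 19.6, 20, 12.6 and 14.0 CPM on KD. Its lowest LFD library was above its highest other library, and it was 5.12-fold lower on KD (log2 fold change -2.36, SE 0.27, edgeR adjusted p = 0.00335). Socs3, an inhibitor of cytokine receptors that signal through STAT3, was at 31.0, 31.1 and 23.5 CPM on LFD, 6.90 and 11.6 CPM on HFD, and 9.10, 7.17, 7.66 and 8.02 CPM on KD. The KD libraries lay close together, within the HFD range and far below LFD, 3.58-fold lower (log2 fold change -1.84, SE 0.20, edgeR adjusted p = 0.00211).

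Nfkbia encodes the NF-kB inhibitor IkB alpha and is itself an NF-kB target. It was at 84.7, 73.4 and 42.6 CPM on LFD, 25.3 and 30.1 CPM on HFD, and 24.0, 25.3, 14.9 and 21 CPM on KD. It was separate from LFD on both diets and 3.13-fold lower on KD (log2 fold change -1.65, SE 0.24, edgeR adjusted p = 0.00712). Nfkbiz, a nuclear IkB that shapes secondary NF-kB targets, was at 96.0, 83.7 and 59.2 CPM on LFD, 37.2 and 32.7 CPM on HFD, and 27.8, 24.8, 24.0 and 23.3 CPM on KD. The 3 diets did not overlap, and it was 3.19-fold lower on KD (log2 fold change -1.67, SE 0.16, edgeR adjusted p = 0.00158). The remaining inhibitors are phosphatases of ERK. Dusp5 was at 19.3, 27.9 and 21.9 CPM on LFD, 15.2 and 24.3 CPM on HFD, and 15.6, 20, 15.5 and 22.7 CPM on KD, with overlap throughout and an adjusted p of 0.392 on KD. Dusp2 was rare, at 1.66, 2.55 and 0.235 CPM on LFD, 0.850 and 0.419 CPM on HFD, and 1.79, 0.668, 0.891 and 0.448 CPM on KD, with an adjusted p of 0.595.

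Among 5 stress and effector genes 3 fell on KD, beside 3.14% of all genes. Gadd45b, a stress sensor acting on p38 and JNK signalling, was at 20.6, 28.6 and 20.2 CPM on LFD, 5.45 and 7.46 CPM on HFD, and 10.8, 9.85, 7.30 and 8.83 CPM on KD. LFD lay above both diets, and only KD 3 was as low as the HFD libraries. It was 2.51-fold lower on KD (log2 fold change -1.33, SE 0.20, edgeR adjusted p = 0.00755). Ier3, an NF-kB-induced regulator of cell survival, was at 16.7, 13.8 and 7.13 CPM on LFD, 2.6 and 5.2 CPM on HFD, and 2.57, 2.98, 2.23 and 2.64 CPM on KD. LFD stood apart, and Ier3 was 4.77-fold lower on KD (log2 fold change -2.25, SE 0.32, edgeR adjusted p = 0.00593).

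Arc, the activity-regulated cytoskeletal gene of neurons, was low in islets, at 5.40, 4.44 and 2.95 CPM on LFD, 1.85 and 2.85 CPM on HFD, and 1.79, 1.29, 1.51 and 1.21 CPM on KD. The 3 diets did not overlap. Its change on KD was -1.56 (SE 0.31, edgeR adjusted p = 0.0235), not past the threshold without LFD 1, LFD 2, KD 2 or KD 3 (adjusted p from 0.0668 to 0.106). Ppp1r15a, the GADD34 subunit that restores translation after stress, was at 22.5, 30.1 and 21.8 CPM on LFD, 18 and 18.9 CPM on HFD, and 18, 19.1, 17.4 and 20.9 CPM on KD. Its LFD libraries were all above the rest by a small margin, and the change on KD was -0.39 (SE 0.15, edgeR adjusted p = 0.147). Rhob, an inducible small GTPase, had a change of -0.50 and an adjusted p of 0.137.

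**Figure D4:**
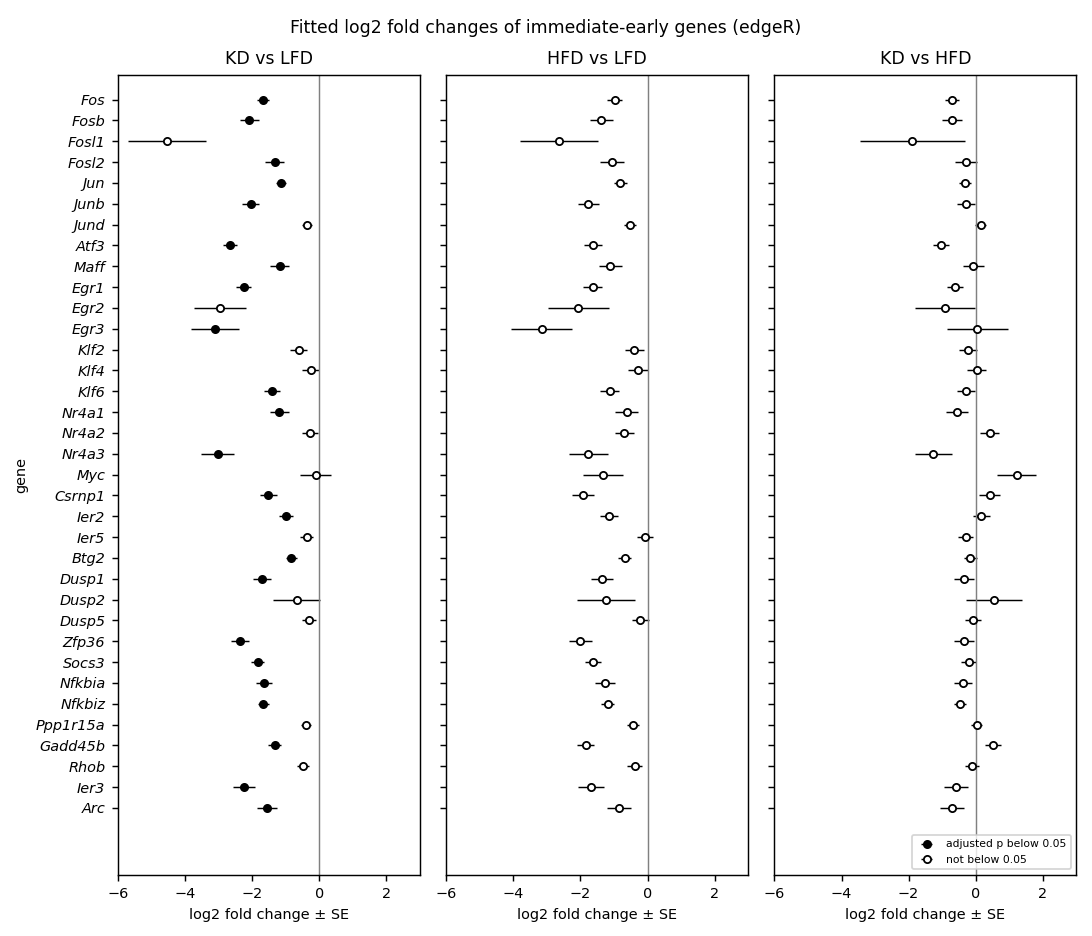
Fitted log2 fold change (horizontal axis) with its SE for each of the 35 immediate-early genes (vertical axis) in the 3 comparisons of diets, filled where the edgeR adjusted p is below 0.05. All 35 points lie below 0 for KD and for HFD against LFD, 23 are filled for KD against LFD, none for the other comparisons, and KD against HFD lies on both sides of 0.

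HFD against LFD shares its LFD libraries with the comparison above, so no overlap between them is counted as a result. By edgeR 0 members passed the adjusted threshold, as did 0 of all genes tested that were lower (0% of genes), and the smallest adjusted p was 0.134. At an unadjusted p below 0.05, 27 members were lower and 0 higher, beside 6.44% of all genes that were lower. Over all 18548 genes, 1853 had such a p in either direction, 1195 of them lower and the rest higher. In 24 members both HFD libraries lay below every LFD library, beside 14.1% of all genes. The median member log2 fold change was -1.19, that is 2.28-fold lower, beside 0 over all genes. Other tools made calls here, 17 members by DESeq2, which called 1.44% of all genes, and 7 by limma-voom, which called 0.0539%. Without LFD 3 edgeR called 16 members and 1.06% of all genes, so whether members pass on HFD depends on these choices.

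Single members on HFD ranged in fitted change from -3.16 to -0.08. The lowest were Egr3 (log2 fold change -3.16, SE 0.91, edgeR adjusted p = 0.332) and Fosl1 (-2.65, edgeR adjusted p = 0.490), both at few counts. The smallest edgeR adjusted p, 0.134, was shared by Gadd45b (-1.84, SE 0.25), Socs3 (-1.62, SE 0.24), Atf3 (-1.62, SE 0.26) and others. Zfp36 stood 4-fold lower and Csrnp1 3.79-fold lower, also at an edgeR adjusted p of 0.134. The highest were Ier5 (-0.08, SE 0.24) and Dusp5 (-0.22, SE 0.25), both of which turned sign without HFD 1 (0.20 and 0.07). In 22 members every KD and every HFD library lay below every LFD library, beside 4.39% of all genes.

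KD against HFD compares the high fat groups directly, without the LFD libraries in the fold change. By edgeR 0 of the 35 members passed the adjusted threshold, as did 0% of all genes that were lower, with a smallest adjusted p of 0.124. At an unadjusted p below 0.05 there were 6 lower members and 1 higher, beside 10.6% of all genes that were lower. Over all 18548 genes, 4215 had such a p in either direction, 1969 of them lower and the rest higher. DESeq2 called 1 member and 8.18% of all genes, limma-voom 0 of either, and edgeR without KD 4 called 1 member and 9.84% of all genes. Fitted changes were below 0 in 25 members and above 0 in 10, with a median of -0.28, that is 1.21-fold lower, beside -0.04 over all genes. In 9 members every KD library lay below both HFD libraries, 25.7% of members beside 18.2% of all genes. Atf3 was lower on KD (log2 fold change -1.04, SE 0.23, edgeR adjusted p = 0.124), as was Nr4a3 (-1.27, SE 0.55, adjusted p = 0.204), and Fosl1 had the lowest value (-1.89, SE 1.56). Myc had the highest (1.22, SE 0.58, edgeR adjusted p = 0.241), followed by Dusp2 (0.55, SE 0.83), and both turned negative with the acinar score as a covariate (-0.36 and -1.39).

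Levels within the family were compared per length, as mean LFD CPM per kilobase of exon. Jund was highest at 73.1, followed by Btg2 at 69.7, Fos at 62.5, Jun at 46.3 and Junb at 45. Fosl1, at 0.237, and Dusp2, at 0.740, were lowest. On KD these 5 stood lower, with Jund at 56.6 CPM per kilobase, Btg2 at 38.8, Jun at 21, Fos at 19.5 and Junb at 10.8. The raw mean LFD level was at least 10 CPM in 30 members. The median biological coefficient of variation, the spread between libraries of a diet beyond counting error, was 0.233 for members and 0.243 for all genes, and 16 of the 35 lay above the latter.

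Genes that act upstream of the members mostly did not pass the test. Of 37 genes for RAS, MAP kinases, cyclic AMP and calcium signalling, CREB, SRF and NF-kB subunits, 0 fell on KD and 1 rose. Of all genes tested 3.14% fell and 0.981% rose. The median log2 fold change of the 37 was -0.04 on KD and -0.19 on HFD. The 1 that rose was Map2k2, the ERK kinase MEK2, at 47.8, 48.8 and 34.1 CPM on LFD, 41.9 and 42.4 CPM on HFD, and 88.7, 61.5, 78.9 and 58.0 CPM on KD. Every KD library was above every other library (log2 fold change 0.72, SE 0.18, edgeR adjusted p = 0.0480). This call is close to the threshold, and it was not followed on leaving out single libraries. Transcript levels say nothing here of kinase activity, which was not measured.

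Further primary response genes are cytokines and effectors that the same pathways induce. Of 57 genes listed, 55 were tested, 20 fell and 0 rose on KD, with a median log2 fold change of -0.67 on KD and -0.65 on HFD. Over all genes 3.14% fell and 0.981% rose, and this list too was chosen with the data known, so nothing is read from its count. Cxcl1, a neutrophil-attracting chemokine, was at 7.97, 7.66 and 3.75 CPM on LFD, 0.500 and 1.63 CPM on HFD, and 0.311, 0.446, 0.356 and 0.224 CPM on KD. The 3 diets were separate (KD log2 fold change -4.25, SE 0.47, edgeR adjusted p = 0.00235). Ccl2, a monocyte-attracting chemokine, was at 6.01, 7.98 and 2.44 CPM on LFD, 0.200 and 0.754 CPM on HFD, and 0, 0.223, 0 and 0.0448 CPM on KD (edgeR adjusted p = 0.00445). LFD was far above both diets. Il6, a cytokine made by many activated cells, had 329 counts over the LFD libraries and 2 over KD, a depth-corrected ratio of 189 (95% counting interval 51.9 to 1566), with an edgeR adjusted p of 0.00445. Il6 and Ccl2 passed the filter on low counts through their LFD libraries, so that they differed is no support. Irf1, an interferon-induced factor, was at 53.2, 58.4 and 37.7 CPM on LFD, 25.5 and 37.4 CPM on HFD, and 18.4, 20.5, 15.6 and 22 CPM on KD. LFD 3 lay just above HFD 2, and Irf1 was 2.59-fold lower on KD (log2 fold change -1.37, SE 0.19, edgeR adjusted p = 0.00535). The lymphocyte marker sums given above moved with these genes too, and their part in the results was not tested.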

How the data were processed

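RNA was sequenced from islets of mice on 3 diets, in 9 libraries. The authors deposited raw counts per gene for all libraries in 1 table. Per the submitters' processing notes, cutadapt 1.16, STAR 2.7.9a, featureCounts 1.6.3 and DESeq2 1.40.2 were used with build GRCm39. No annotation or strand setting for the counting was found in the labels or the table, and reads of overlapping or antisense genes may be shared.

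Symbols were matched for 51948 of 56941 identifiers. The counts were filtered with filterByExpr by diet, scaled by TMM and fitted with edgeR 4.0.16 (robust quasi-likelihood, 1 mean per diet, all 9 libraries, R 4.3.3), with Benjamini-Hochberg adjustment over all 18548 genes and a threshold of 0.05. Groups were taken from the labels. The marker scores are mean log2 CPM values with a prior count of 2, computed from the deposited counts. Exon lengths come from GENCODE M21, an annotation of GRCm38. Counting intervals have a confidence level of 95%, are exact and cover counting error only.

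The members and lists were chosen with earlier results of these data known. Values are given in every library for members past the threshold in any comparison, for Fos, Jun, Egr1, Atf3, Nr4a1, Klf4, Myc, Dusp1, Zfp36, Socs3, Nfkbia and Ppp1r15a, and for the 2 highest and 2 lowest fold changes of each comparison. From the upstream and other primary response lists, the members past the threshold were named, up to the 4 with the lowest p. Alternatives were other scalings, DESeq2 1.42.0, limma-voom (limma 3.58.1), other filters, other samples or covariates in the fit, the replicate number as a block, and leaving out each library. The fit was tested on simulated data, where 52.9% of 191 genes changed between KD and LFD by 2-fold or 4-fold were recovered (36.6% and 68.4%), with 7 false calls over 18070 genes.

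Libraries of the same diet differed by more than counting noise, with a chi-square per gene of at least 26.9, so none was counted as a repeat of another.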

Additional observations from a re-analysis of the deposited data

Results flagged for a closer look

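In the 4 KD libraries 3 members had 1 library far from the others by Dixon's ratio, of 35 members examined, and chance gives about 1 such group in 20. Fosl1 was at 0.0446 CPM in KD 2, which is 1 count, and at 0 in the other KD libraries. Nr4a1 was at 19.8 CPM in KD 1, below 31.2, 30.7 and 31.7 CPM in KD 2, KD 3 and KD 4. Nr4a3 was at 1.03 CPM in KD 4, below 1.56, 1.47 and 1.51 CPM in the other KD libraries.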

How the results depend on the processing

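The count of members that fell on KD against LFD lay between 20 and 27, beside 23, under the other scalings, tools, filters, samples and the acinar covariate. Those fits called from 3.12% to 10.1% of all genes in either direction, beside 4.12%. Whichever library was left out, 14 members were called. The count of members that fell ran from 14 to 25 on leaving out 1 library, in fits that called 0.822% to 7.4% of all genes. With the B lymphocyte score as a covariate it was 0, and without both LFD 1 and LFD 2 it was 3, where these fits called 0% and 0.128% of all genes beside 4.12%. Both of these alternatives were chosen after seeing the data. On HFD against LFD members called numbered 17 by DESeq2, 7 by limma-voom, 10 without a filter on low counts, 17 with the replicate block, and 0 to 16 on leaving out 1 library. On KD against HFD members called numbered 1 by DESeq2, 1 without the filter, 1 with the replicate block, and 0 to 1 on leaving out 1 library. The cause of these shifts was not tested. The share of all genes called also moved between tools, as given above, so these counts are not read as a result about the members.

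The median member log2 fold change ran from -1.68 to -1.24 (KD against LFD), -1.40 to -0.99 (HFD against LFD) and -0.39 to -0.10 (KD against HFD) on leaving out 1 library. With the acinar score the medians of members were -0.88 for HFD against LFD and -0.58 for KD against HFD. With the B lymphocyte score they were 0.29, 0.14 and 0.07 in the same order, a reversal in each. Without both LFD 1 and LFD 2 they were -0.80 on KD and -0.54 on HFD.

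With the B lymphocyte score, 22 of the 35 members had a fitted change above 0 for KD against LFD and 21 for HFD against LFD. Among the members followed under every alternative, KD against LFD reversed for Fosl2 (1.05), Junb (0.22), Maff (0.92), Egr3 (0.50), Klf4 (1.70), Nr4a1 (1.24), Nr4a3 (1.74), Myc (2.72), Csrnp1 (0.71), Btg2 (0.22), Dusp1 (0.19), Nfkbia (0.29), Ppp1r15a (0.53) and Ier3 (0.24). HFD against LFD reversed for Fos (0.10), Klf4 (1.24), Nr4a1 (1.28), Myc (0.93), Ier5 (0.61), Dusp1 (0.14), Dusp5 (0.63), Nfkbia (0.25) and Ppp1r15a (0.30). Without both LFD 1 and LFD 2, 4 of 34 members were above 0 on KD and 8 on HFD, among them Klf4 (0.49) and Myc (1.30) on KD, and Klf4 (0.43), Nr4a1 (0.35) and Myc (0.05) on HFD. Myc on KD also reversed with the replicate block (0.24) and without LFD 2 (0.34), KD 2 (0.01) or KD 4 (0.12), in a range from -0.51 to 0.34 on leaving out 1 library. Without HFD 1, Ier5 (0.20, range -0.44 to 0.20 on leaving out 1 library) and Dusp5 (0.07, range -0.61 to 0.07) reversed on HFD, and Fosl1 (1.66, range -3.54 to 1.66) in KD against HFD. With the acinar score Myc (-0.36) and Dusp2 (-1.39) reversed in KD against HFD.

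The replicate numbers are shared only as numbers. Deviations of same-numbered LFD and KD libraries correlated at 0.222, -0.016 and -0.003, so the libraries were not treated as pairs. With the replicate block 22 members fell on KD, in a fit that called 10.8% of all genes in either direction. The medians of members with that block were -1.35, -1.35 and -0.11 in the order above. Fosl1, Egr2, Egr3 and Dusp2 are limited by their few counts.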

Other observations

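Heat shock genes answer protein damage through heat shock factor 1. Of 15 such genes 9 fell on KD against LFD and 0 rose, with a median log2 fold change of -1.11 on KD and -0.46 on HFD. Over all genes 3.14% fell and 0.981% rose, and the list was chosen with the data known. Hspa1a, an inducible HSP70, was at 117, 148 and 209 CPM on LFD, 63.0 and 88.1 CPM on HFD, and 34.9, 33.3, 22.4 and 22.7 CPM on KD. Here LFD 3 was the highest library, and the 3 diets did not overlap (KD log2 fold change -2.48, SE 0.23, edgeR adjusted p = 0.00158). Hspa1b is a near-identical copy, so the split of counts between them is uncertain. Dnajb1, an HSP40 co-chaperone, was also highest in LFD 3, at 164 CPM beside 67.0 and 97.4 CPM in the other LFD libraries and 34.5 to 47.4 CPM on KD. Not every heat shock gene was highest in LFD 3. Hspa8 and Hsp90ab1 were at 1577 and 930 CPM in LFD 2, beside 1297 and 844 CPM in LFD 3. Cryab was at 11.4 CPM in LFD 3, beside 15.9 and 18.5 CPM in the other LFD libraries. In the immediate-early genes LFD 3 was the lowest LFD library in 33 of 35 members.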
